A study of Mus musculus with 19 samples.

Results

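Kupffer cells (KCs), the resident macrophages of the liver, were examined for 8 genes of lipoprotein handling and cholesterol efflux: Apoc1, Apoe, Lpl, Pltp, Abca1, Abcg1, Lipa and Soat1. The genes were taken by name, and a gene was measured where a probeset of the array carried its symbol alone. That held for 7 of the 8 genes, each on 1 probeset, out of 19938 genes measured in the same way, and no value is given for Soat1. Expression was read on Affymetrix Mouse Gene 1.0 ST arrays, and all levels below are log2 values as the authors deposited them, so a difference of 1 is a doubling. Each probeset has its own brightness, so levels were compared between arrays and never between genes.

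Monocyte-derived KCs (mo-KCs) from KC-DTR mice given 50 ng of diphtheria toxin (DT) were on 3 arrays at day 15 and on 5 arrays at day 30 after the toxin. The 11 arrays of embryonically derived KCs (em-KCs) covered WT mice (3 arrays), KC-DTR mice without DT (3), a WT littermate without DT (1), and WT littermates 15 or 30 days after DT (2 at each time). KC-DTR mice carry a cassette for yellow fluorescent protein and the human DT receptor behind the coding part of Clec4f, so that the Clec4f gene itself, active in KCs, drives the receptor and DT removes the resident KCs. All mice were 6 to 12 weeks old on a C57BL/6 background, and the cells of every group were sorted from liver by the surface proteins Clec4F and Adgre1. Every mo-KC array thus comes from mice with both the cassette and DT, while no em-KC array has both, and whether an array holds cells of 1 mouse or of several is not stated. Arrays of a group are labelled as biological replicates. A lower level in every cell and a lower share of expressing cells cannot be told apart in such sorted samples.

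Macrophages take up lipoproteins and cell debris and must dispose of the cholesterol they contain. Lysosomal acid lipase, the product of Lipa, frees cholesterol from its esters, and Soat1 encodes the enzyme that re-esterifies it for storage. Free cholesterol leaves the cell through the transporters encoded by Abca1 and Abcg1, onto apolipoprotein A-I and onto high-density lipoprotein. Apolipoprotein E, which macrophages secrete, also accepts cholesterol and serves as a ligand for lipoprotein receptors, and apolipoprotein C-I, the product of Apoc1, is a small exchangeable apolipoprotein. Lipoprotein lipase (Lpl) releases fatty acids from triglyceride-rich particles, and phospholipid transfer protein (Pltp) moves phospholipids between particles. Most of these genes are known targets of the liver X receptors (LXRs), nuclear receptors that sense oxysterols and bind DNA together with RXR.

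As an example of such an element, 30 bases near a start of Abca1 are shown from RefSeq (GRCm38.p6, chr4:53159940-53159969, minus strand), with a pair of half-sites of the kind that LXR and RXR bind in capitals.
Abca1: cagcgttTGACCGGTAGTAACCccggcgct
The capitals lie 67 to 53 bases before the start site that RefSeq's promoter windows use for Abca1, at position 53159895, and read, on the opposite strand, GGTTA and GGTCA with 5 bases between them. RefSeq's span of the gene (53030789 to 53159988) begins 93 bases upstream of that site, so the capitals lie inside the span. Both strands of 32851 RefSeq windows, each of 300 bases with 250 before a start, were searched for this pair, and 16 windows (0.0487%) held it. It was found in 1 of the 7 windows listed for Apoe, Abca1, Pltp, Lipa and Soat1, while the pair GGTCA and GGTCA at the same spacing was found in none of the 7 and in 25 of all windows (0.0761%). A match describes the letters only and was not set against expression.

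All 10 Kupffer cell markers were measured, and their mean was 11.13 in day 15 mo-KCs, 11.20 in day 30 mo-KCs and 11.93 in em-KCs. Clec4f, Timd4, Cd163 and Marco passed at day 30, lower in mo-KCs, and the last 3 also at day 15. Over all genes 0.787% passed at day 30 and 0.502% at day 15. The 10 markers had a median difference of -0.17 at day 15 and -0.24 at day 30, smaller than the drop of their mean. At each day 9 of the 10 were lower, and Clec1b was slightly higher (11.57 and 11.55 against 11.49). The 4 measured monocyte markers averaged 7.71 in day 15 mo-KCs, 7.24 in day 30 mo-KCs and 7.01 in em-KCs. Of these Ccr2, a chemokine receptor of monocytes, was higher at day 15 than in em-KCs (8.48 against 5.58, adjusted p = 2.4e-08 from limma). It was lower at day 30, at 6.19, than at day 15 (adjusted p = 2.7e-05 from limma). Plac8 was also higher at day 15 than in em-KCs (11.66 against 11.05), while Chil3 (4.36 against 4.54) and Fn1 (6.33 against 6.87) were lower. None of these 3 passed at day 15. Among em-KCs the monocyte marker mean was highest in WT mice, at 7.55. Of the 4 markers Fn1 alone passed there against em-KCs of the KC-DTR colony, higher, when 16.5% of all genes passed. In the same order of groups the means were 10.26, 10.04 and 10.22 for 8 endothelial markers, 6.14, 6.32 and 6.26 for 6 stellate cell markers, 5.18, 5.37 and 5.24 for 6 neutrophil markers and 5.75, 5.81 and 6.18 for 4 lymphocyte markers. The part of these cells in the results below was not tested. Day 30 mo-KC replicates 3, 4 and 5 and all WT em-KC arrays had a mean over Y-linked genes of 3.97 to 4.18, against 7.33 to 7.83 on the other 13 arrays. No source used here states which arrays share a batch or a sex, and these cannot be told apart in the 6 arrays, so day 30 results are also given within each set: 3 mo-KC and 3 em-KC arrays with low Y-linked genes, and 2 mo-KC and 8 em-KC arrays with high ones. Groups were compared with limma over all 19938 genes, with p-values adjusted by Benjamini-Hochberg over all of them and a threshold of 0.05.

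Of the 7 genes, Apoc1 was the one that passed the test between mo-KCs and em-KCs. It lies on chr7 (19689480 to 19692659, GRCm38.p6). It read 12.13, 12.17 and 12.09 in day 15 mo-KCs, 12.45, 12.41, 12.61, 12.45 and 12.57 in day 30 mo-KCs, and 13.17 to 13.40 (median 13.25) in em-KCs. Each of the 8 mo-KC arrays lay below each of the 11 em-KC arrays, and no other of the 7 genes did so at both days. At day 15 Apoc1 was 2.19-fold lower than in em-KCs (difference -1.13, standard error 0.07, 95% confidence interval -1.28 to -0.98, adjusted p = 2.4e-09 from limma). At day 30 it was 1.69-fold lower (difference -0.76, standard error 0.06, interval -0.88 to -0.64, adjusted p = 8.8e-08 from limma). It ranked 4 at day 15 and 6 at day 30 when all 19938 genes were ordered by p.

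Apoc1 was the only one of the 7 genes to pass the test at each day, in both cases lower in mo-KCs. Over all genes, 0.502% passed at day 15 (38 higher and 62 lower) and 0.787% at day 30 (59 higher and 98 lower). Genes of which every mo-KC array lay below every em-KC array made up 1.05% of all genes at day 15 and 0.376% at day 30. Apoc1 and Lipa were among them at day 15, and Apoc1 at day 30.

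**Figure D1:**
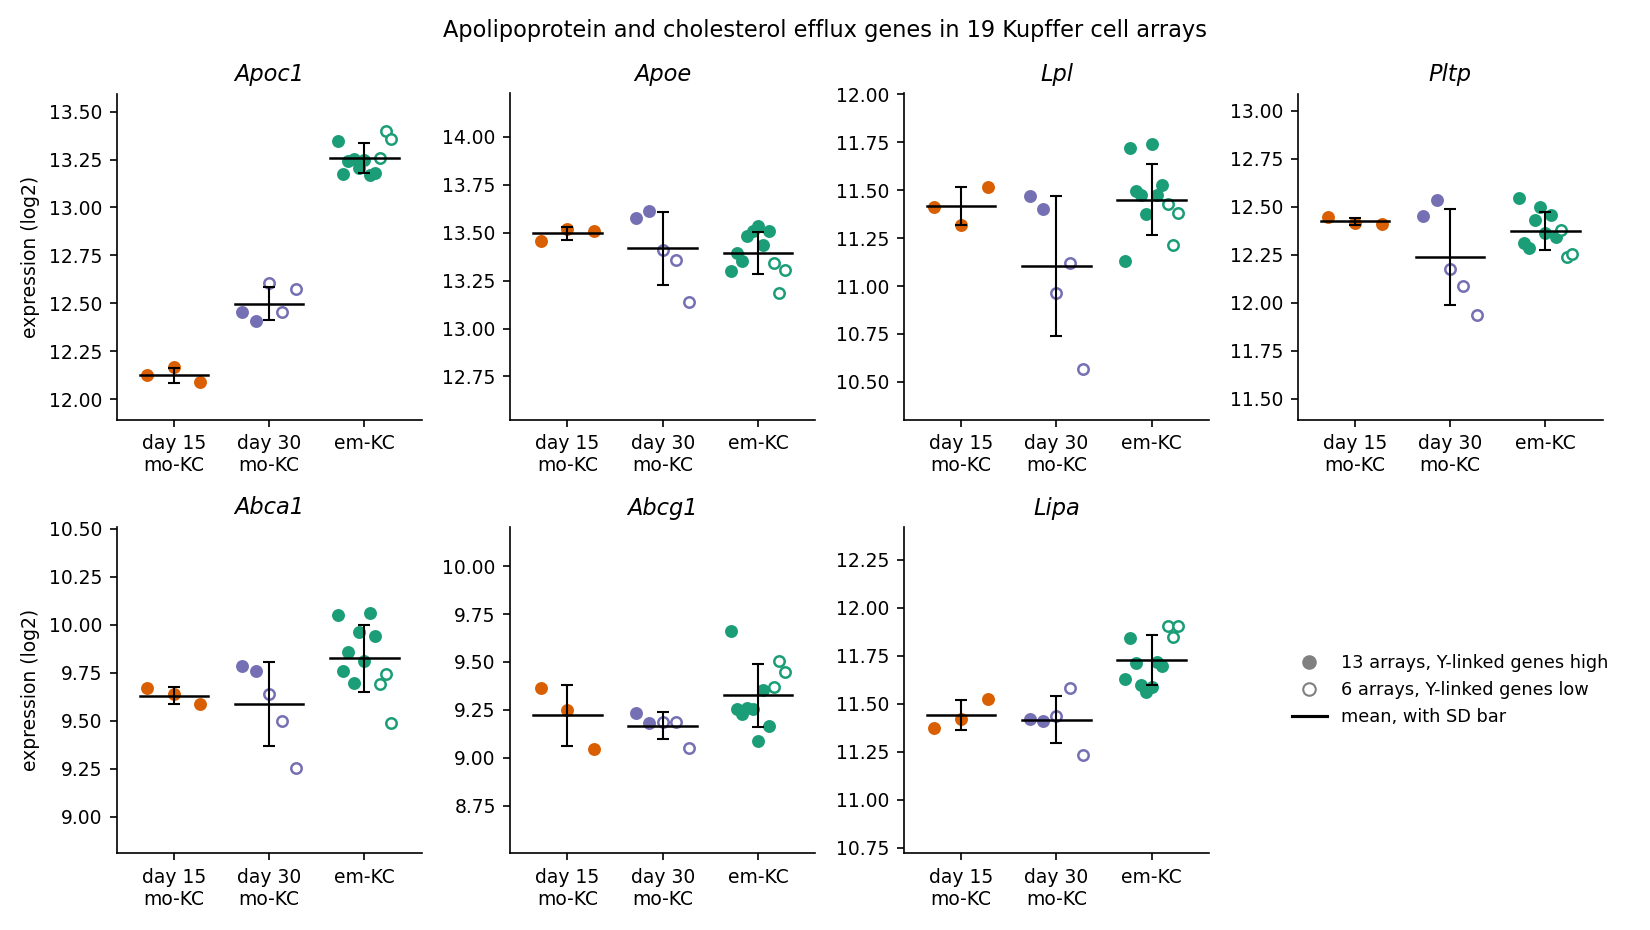
Expression (log2) of the 7 measured genes on 19 arrays, by day 15 mo-KC (3 arrays), day 30 mo-KC (5) and em-KC (11). Points are arrays, open where Y-linked genes were low, lines are means and bars SDs, and each vertical axis spans the same range. The 8 mo-KC arrays sit between 12.09 and 12.61 for Apoc1, all below the em-KC arrays, while the groups overlap at day 30 for the other 6 genes.

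Between the days Apoc1 was 0.37 higher at day 30 than at day 15 (standard error 0.08, 95% confidence interval 0.20 to 0.54, 1.29-fold). Every day 30 array lay above every day 15 array, which held for 1.65% of all genes. The adjusted p was 0.339 from limma, so the difference did not pass the test, although it ranked 8 of 19938 by p (unadjusted p = 1.6e-04 from limma). With a mean-variance trend and robust variances it passed (adjusted p = 0.0495 from limma). Over all genes 0.0201% passed between the days (4 genes), and none of the 7 genes was among them. The highest day 30 array had 12.61 and the lowest em-KC array 13.17.

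The size of the day 30 difference of Apoc1 was alike in both sets of arrays. Within the 6 arrays Apoc1 averaged 12.54 ± 0.08 in day 30 mo-KCs and 13.34 ± 0.07 in em-KCs (SD, n = 3 each), a difference of -0.79 (interval -1.06 to -0.53, adjusted p = 0.0127 from limma). Within the 13 arrays the averages were 12.43 ± 0.03 (SD, n = 2) and 13.23 ± 0.06 (SD, n = 8), a difference of -0.80 (interval -0.96 to -0.64, adjusted p = 4.2e-05 from limma). The difference in the 6 arrays minus that in the 13 arrays was 0.00 (interval -0.23 to 0.24). Day 15 mo-KCs were all among the 13 arrays, where their difference was -1.10 (adjusted p = 5.3e-08 from limma).

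Among em-KCs Apoc1 varied little. Its condition means were 13.34 ± 0.07 in WT mice (SD, n = 3), 13.26 ± 0.09 in KC-DTR mice without DT (SD, n = 3), 13.25 in the untreated littermate (n = 1), 13.23 ± 0.03 in day 15 littermates and 13.17 ± 0.01 in day 30 littermates (SD, n = 2 each). Neighbours in this order differed by no more than the larger of their SDs, except the littermates of day 15 and day 30. Untreated KC-DTR em-KCs differed by 0.04 (interval -0.14 to 0.22) from the mean of the littermate conditions. Of the 5 littermate arrays 4 were after DT. Littermates after DT differed from the untreated littermate by -0.05 (interval -0.32 to 0.21), where the single untreated array was assumed to vary like the others. Both comparisons thus gave intervals within 1.5-fold for Apoc1. The first does not set the cassette apart from the toxin, since most of its littermate arrays were after DT. Mo-KCs have both the cassette and the toxin, and these arrays hold no em-KCs with both.

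**Figure D2:**
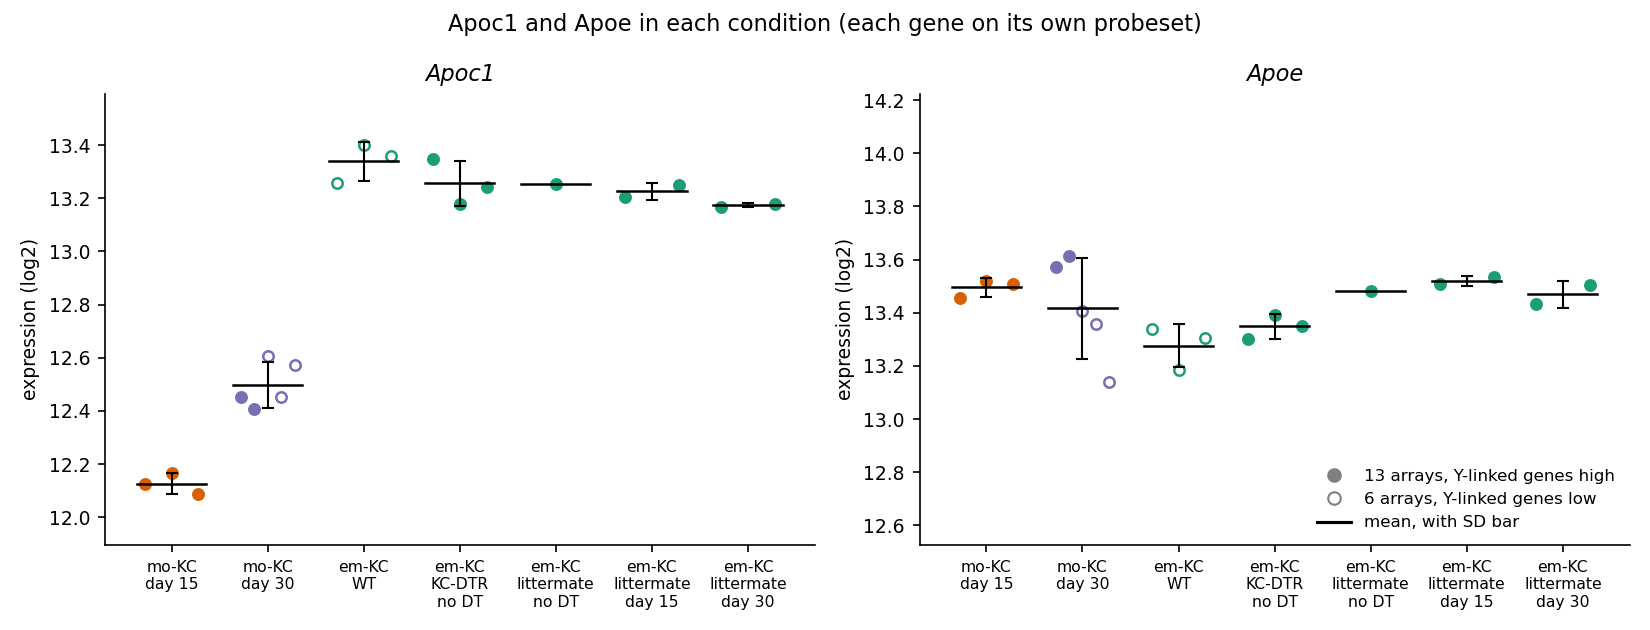
Expression (log2) of Apoc1 and Apoe in each of the 7 conditions, with mo-KCs at the left. Points are arrays, open where Y-linked genes were low, lines are means and bars SDs. Apoc1 lies between 13.17 and 13.40 in all em-KC conditions and at 12.61 or below in mo-KCs, and Apoe overlaps between mo-KCs and em-KCs.

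Apoe, whose gene lies 3584 bases from Apoc1 on chr7 (19696244 to 19701310), did not share the difference of Apoc1. It read 13.46, 13.52 and 13.51 in day 15 mo-KCs, 13.57, 13.61, 13.41, 13.36 and 13.14 in day 30 mo-KCs, and 13.18 to 13.53 (median 13.39) in em-KCs. The mo-KC arrays lay on both sides of the em-KC median at day 30 and above it at day 15. The difference was 0.10 at day 15 (interval -0.09 to 0.30, adjusted p = 0.956 from limma) and 0.02 at day 30 (interval -0.14 to 0.18, adjusted p = 0.931 from limma), with intervals that reach 1.23-fold at most. Within the 6 arrays the day 30 difference was 0.03 (interval -0.27 to 0.32), and within the 13 arrays it was 0.15 (interval -0.02 to 0.33). Within one array the Apoc1 value minus the Apoe value does not depend on a common scaling of that array. It was -1.42 to -1.33 in day 15 mo-KCs, -1.21 to -0.56 in day 30 mo-KCs and -0.33 to 0.22 in em-KCs, so the groups did not overlap in it. Apoc1 without Apoe did not overlap between the groups either, and no share over all genes was taken for such a value. Both probesets are bright, with the highest value of any probeset on any array at 14.4, and whether bright signals are compressed was not tested.

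Other genes of the same stretch of chr7 gave no call at either day in limma or in the methods' t-test. Of 10 listed neighbours 8 were measured, with a median difference of -0.05 at day 15 and 0.01 at day 30, against -0.01 and -0.02 over all genes. None of the 8 had an unadjusted p under 0.05 in limma at day 15 and 1 did at day 30. Over all 19938 genes 1206 and 2582 did. Apoc4, the apolipoprotein gene next to Apoc1 on the other side, differed by -0.23 (interval -0.91 to 0.45) at day 15 and 0.10 (interval -0.46 to 0.67) at day 30. Tomm40, which encodes a subunit of the mitochondrial import pore and lies next to Apoe, differed by -0.04 (interval -0.25 to 0.17) at day 15 and by -0.24 (interval -0.42 to -0.07, adjusted p = 0.208 from limma) at day 30. Apoc2, the activator of lipoprotein lipase in the same cluster, was not measured on a probeset of its own.

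Hepatocytes also make Apoc1 and Apoe, and hepatocyte transcripts varied between arrays. The mean over 11 hepatocyte markers was 8.29 (8.12 to 8.52) in day 15 mo-KCs, 8.56 (7.94 to 9.34) in day 30 mo-KCs and 9.06 (8.18 to 10.31) in em-KCs. Of these markers none passed at day 15 and Trf alone passed at day 30, lower in mo-KCs. All 11 differences were below 0 at both days, with medians of -0.63 at day 15 and -0.50 at day 30. An unadjusted p under 0.05 in limma was reached by 6 of the 11 at day 15 and by 2 at day 30. Over all 19938 genes 1206 and 2582 reached it. The highest levels were in WT em-KCs, at 10.21 ± 0.12 (SD, n = 3), which also had the 3 highest single arrays. There 10 of the 11 hepatocyte markers (all but Trf) were higher than in the em-KCs of the KC-DTR colony, with a median difference of 1.81. In that comparison 16.5% of all genes passed, 1366 higher and 1923 lower. Apoc1 differed there by 0.11 (interval -0.05 to 0.28) and Apoe by -0.18 (interval -0.38 to 0.02). With the hepatocyte mean as a covariate the difference of Apoc1 was -1.08 at day 15, against -1.13 without it, and -0.73 at day 30, against -0.76. The part of hepatocyte RNA in these differences was not tested.

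Lpl, the lipase gene, was spread widely among day 30 mo-KCs. It read 11.41, 11.32 and 11.52 in day 15 mo-KCs, 11.47, 11.40, 10.97, 11.12 and 10.57 in day 30 mo-KCs, and 11.13 to 11.74 (median 11.47) in em-KCs. Day 30 replicates 3, 4 and 5 lay below every em-KC array, and replicates 1 and 2 lay among them. Replicate 4 did so only just, at 11.122 against 11.128 in the lowest em-KC array. No share over all genes was taken for this placing. The difference was -0.03 (interval -0.34 to 0.27) at day 15 and -0.35 (interval -0.60 to -0.09, adjusted p = 0.218 from limma) at day 30. It was -0.46 (interval -0.83 to -0.08, adjusted p = 0.154 from limma) within the 6 arrays and -0.06 (interval -0.32 to 0.21) within the 13 arrays, and the first minus the second was -0.40 (interval -0.82 to 0.02, adjusted p = 0.285 from limma).

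Pltp, which encodes the phospholipid transfer protein, had the same arrays at the low end. It read 12.44, 12.42 and 12.41 in day 15 mo-KCs, 12.45, 12.53, 12.18, 12.09 and 11.94 in day 30 mo-KCs, and 12.24 to 12.54 (median 12.36) in em-KCs. Day 30 replicates 3, 4 and 5 lay below every em-KC array here too, with 12.18 in replicate 3 and 12.24 in the lowest em-KC array. No share over all genes was taken for this placing either. The difference was 0.05 (interval -0.16 to 0.26) at day 15 and -0.14 (interval -0.31 to 0.04, adjusted p = 0.527 from limma) at day 30. It was -0.23 (interval -0.51 to 0.06) within the 6 arrays and 0.09 (interval -0.09 to 0.27) within the 13 arrays, and the first minus the second was -0.32 (interval -0.58 to -0.05, adjusted p = 0.171 from limma). That difference of differences passed the test for 4.72% of all genes and for none of the 7 in limma. An unadjusted p under 0.05 in limma was reached by 1 of the 7 and by 3817 of all 19938 genes. Pltp passed after cyclic loess normalization. Replicates 3, 4 and 5 also stood apart from replicates 1 and 2 in their marker means. The Kupffer cell mean was 10.99 to 11.12 in replicates 3, 4 and 5, against 11.36 and 11.42 in replicates 2 and 1, and the endothelial mean was 9.62 to 9.96 against 10.33 to 10.46. The stellate cell mean was 6.31 to 6.60 against 6.11 to 6.14, the hepatocyte mean 8.40 to 9.34 against 7.94 to 7.97, and the monocyte mean 7.21 to 7.61 against 6.98 to 7.01. The part of these in the low Lpl and Pltp was not tested.

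Abca1, the transporter that loads apolipoprotein A-I, read 9.67, 9.64 and 9.59 in day 15 mo-KCs. It read 9.78, 9.76, 9.64, 9.50 and 9.26 in day 30 mo-KCs and 9.49 to 10.06 (median 9.81) in em-KCs. All 8 mo-KC arrays lay below the em-KC median, and the groups overlapped at both days. The difference was -0.19 (interval -0.43 to 0.05, adjusted p = 0.913 from limma) at day 15 and -0.24 (interval -0.44 to -0.04, adjusted p = 0.286 from limma) at day 30. Within the 6 arrays it was -0.18 and within the 13 arrays -0.12 at day 30, neither past the threshold, and it ran from -0.42 against the day 30 littermates alone to -0.07 with the replicate number as a block. With the hepatocyte mean as a covariate it was -0.32 at day 30 (adjusted p = 0.0346 from limma).

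Abcg1, the transporter that loads high-density lipoprotein, read 9.37, 9.25 and 9.05 in day 15 mo-KCs. It read 9.23, 9.18, 9.19, 9.19 and 9.05 in day 30 mo-KCs and 9.09 to 9.66 (median 9.26) in em-KCs. All 5 day 30 arrays lay below the em-KC median, and 4 of them lay above the lowest em-KC array. The difference was -0.11 (interval -0.31 to 0.10) at day 15 and -0.16 (interval -0.33 to 0.02, adjusted p = 0.43 from limma) at day 30. At day 30 it was -0.30 in the 6 arrays (interval -0.57 to -0.03), which did not pass (adjusted p = 0.189 from limma), while the 13 arrays gave -0.08 (interval -0.34 to 0.18).

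Lipa, the gene of lysosomal acid lipase, came closest to Apoc1. It read 11.38, 11.42 and 11.53 in day 15 mo-KCs, 11.42, 11.41, 11.44, 11.58 and 11.24 in day 30 mo-KCs, and 11.56 to 11.91 (median 11.71) in em-KCs. The day 15 arrays all lay below em-KCs, and at day 30 replicate 4 overlapped with them. The difference was -0.29 (interval -0.48 to -0.10, adjusted p = 0.297 from limma) at day 15 and -0.31 (interval -0.47 to -0.16, adjusted p = 0.0533 from limma) at day 30, a 1.24-fold lower level that missed the threshold. A fit with a term for the array set gave a day 30 difference of -0.36, which passed (adjusted p = 0.00891 from limma). It passed in 7 of 35 alternative settings, and over all 35, passed or not, the values ran from -0.47 to -0.25. At day 15 it was -0.14 against the littermates of that day alone. It was -0.47 (adjusted p = 0.0811 from limma) within the 6 arrays and -0.25 (adjusted p = 0.452 from limma) within the 13 arrays.

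**Figure D3:**
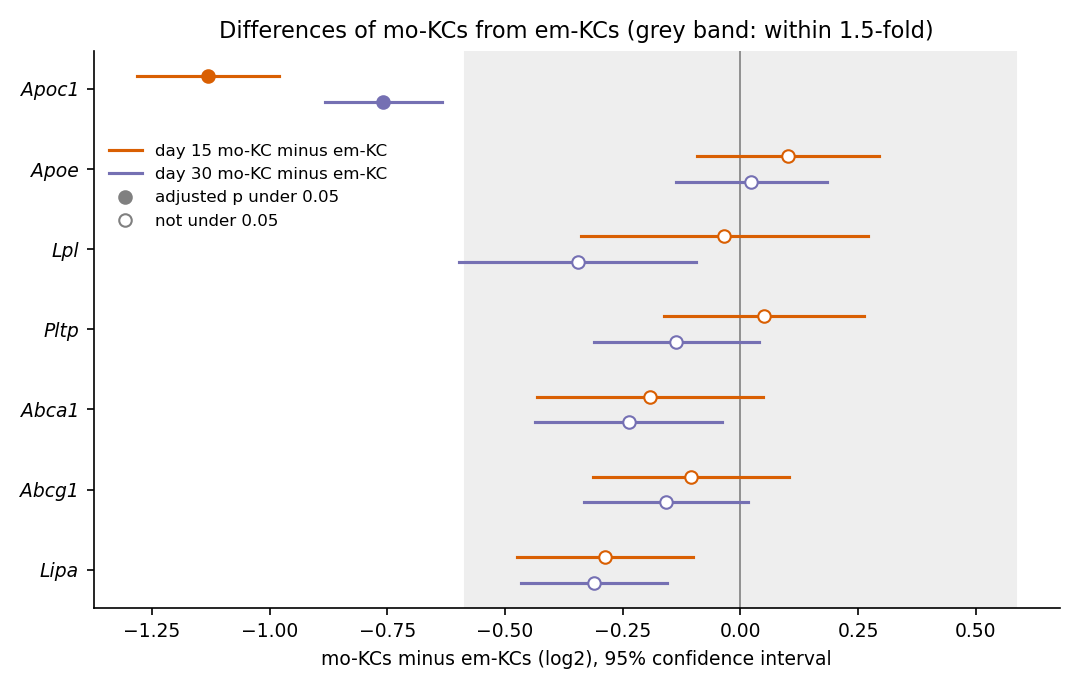
Differences of day 15 and day 30 mo-KCs from em-KCs (log2) for the 7 genes, with 95% confidence intervals from limma. Filled points passed an adjusted p of 0.05 and the grey band marks 1.5-fold. Apoc1 alone is filled, at -1.13 and -0.76, and its intervals lie outside the band.

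Across the 7 genes the median difference was -0.11 at day 15 and -0.24 at day 30, against -0.01 and -0.02 over all genes. At day 15, 6 of the 7 intervals lay within 1.5-fold (87.8% of all genes), the exception being Apoc1. At day 30, 5 of the 7 did (91.1% of all genes), the exceptions being Apoc1 and Lpl. The 2 comparisons share their em-KC arrays, so the similar values at both days are not independent of each other.

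Day 30 replicate 5 had the lowest value of the 5 day 30 arrays in 6 of the 7 genes (Apoe, Lpl, Abca1, Abcg1, Pltp and Lipa), while replicate 2 had the lowest for Apoc1. Over all genes replicate 5 was the lowest of the 5 for 23.6%. It was the lowest of all 19 arrays for 5 of the 7 genes and for 10.5% of all genes. Replicate 5 also had the highest hepatocyte and stellate cell marker means of the mo-KC arrays, at 9.34 and 6.60, and the lowest Kupffer cell marker mean of all 19 arrays, at 10.99. The part of these in its low values was not tested. Without replicate 5 the day 30 difference of Lpl was -0.21, the smallest among the fits that left out 1 array, while that of Apoc1 stayed between -0.79 and -0.74 whichever array was left out.

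**Figure D4:**
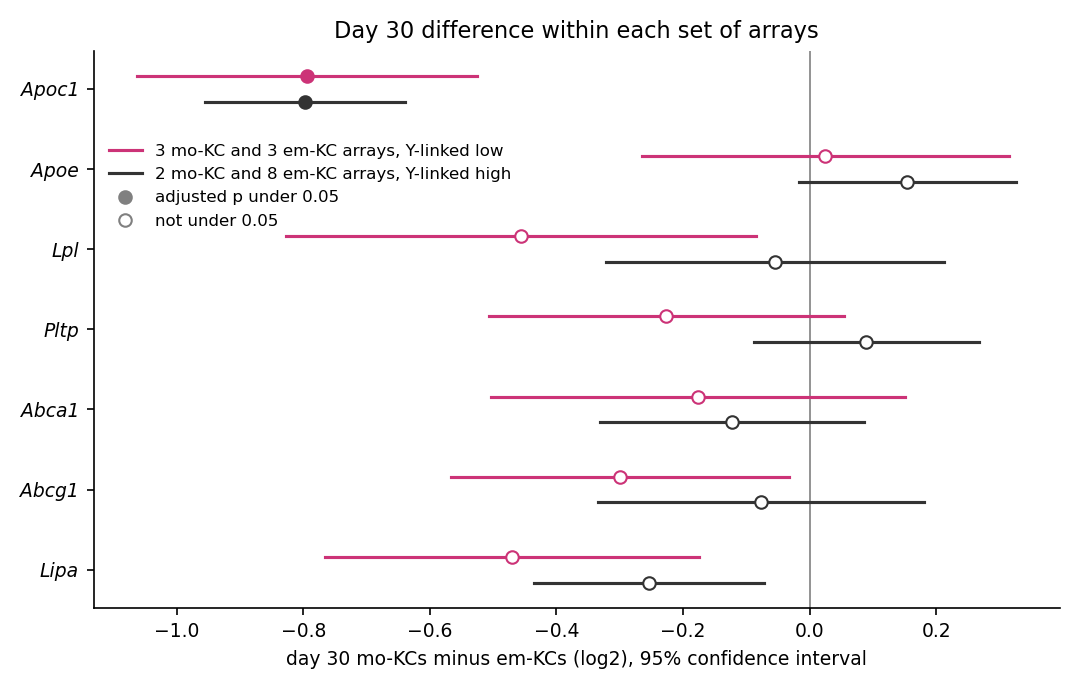
Day 30 mo-KCs minus em-KCs (log2) with 95% confidence intervals from limma, within the 6 arrays with low Y-linked genes (3 mo-KC and 3 em-KC) and within the 13 others (2 mo-KC and 8 em-KC). Filled points passed an adjusted p of 0.05. Apoc1 was at -0.79 and -0.80, while Lpl was at -0.46 and -0.06 and Pltp at -0.23 and 0.09.

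Among em-KC conditions none of the 7 genes passed in limma. Between untreated KC-DTR em-KCs and those of WT littermates (4 of 5 arrays after DT) 0% of all genes passed in limma. An unadjusted p under 0.05 in limma was reached by 756 genes, and the methods' t-test also called 0 after adjustment. None of the 7 had an unadjusted p under 0.05 in limma, and Apoe did in the methods' t-test. All 7 intervals lay within 1.5-fold, and the differences ran from -0.14 for Apoe to 0.15 for Abcg1. Between littermates after DT and the untreated littermate 0% of all genes passed in limma (441 with an unadjusted p under 0.05, none of them among the 7). Here 5 of 7 intervals lay within 1.5-fold, with Abca1 at 0.25 (interval -0.13 to 0.63) and Lpl at 0.06 (interval -0.50 to 0.61) reaching beyond it.

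WT em-KCs stood apart from the em-KCs of the KC-DTR colony in 16.5% of all genes in limma, and none of the 7 was among them. All WT em-KC arrays had low Y-linked genes and all colony em-KC arrays high ones. Colony, batch and sex thus cannot be told apart in this comparison. Of the 7 genes Lipa was nearest to passing, at 11.91, 11.85 and 11.91 in WT em-KCs against 11.56 to 11.84 in colony em-KCs. Its difference was 0.24 (interval 0.06 to 0.41, adjusted p = 0.0659 from limma). Alone of the 7 it had an unadjusted p under 0.05 in limma, as did 6276 of all 19938 genes. It passed under trend and robust variances and in the methods' t-test, and both Lipa and Abcg1 passed after cyclic loess normalization. The others ran from -0.23 for Abca1 to 0.17 for Abcg1. Of the other apolipoproteins and lipoprotein remodelling genes, in contrast, 11 of 18 were higher in WT em-KCs (Apoa1, Apoa2, Apoa4, Apoa5, Apob, Apoc3, Apoc4, Apoh, Apom, Lcat and Clu), most of them known as products of hepatocytes, beside the 10 hepatocyte markers. Apoa1 and Apoa2 stand on both lists. The part of hepatocyte RNA in these 11 was not tested.

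In the wider pathway 1 gene passed between mo-KCs and em-KCs. A list of 15 measured genes held LXR and RXR receptors, a cofactor, LXR targets and the other nuclear receptor genes Pparg and Ppard. None of them passed in limma at day 15 (median difference -0.10). Lpcat3 alone passed at day 30, when 0.787% of all genes passed. An unadjusted p under 0.05 in limma was reached by 1 of the 15 at day 15 and by 8 at day 30. Over all 19938 genes 1206 and 2582 reached it. The median difference at day 30 was -0.22, against -0.02 over all genes. Of the 15 differences 14 were below 0 at day 30, a count for which no share over all genes was taken. Intervals lay within 1.5-fold for 12 of the 15 at day 15 and for 10 at day 30. Lpcat3 encodes an enzyme that puts polyunsaturated chains into phospholipids. It was 7.87 to 8.44 (median 7.99) in day 30 mo-KCs and 8.47 to 8.70 (median 8.59) in em-KCs, with no overlap. Such a place of every day 30 array below every em-KC array held for 0.376% of all genes. The log2 level fell by 0.44 (interval -0.64 to -0.24, adjusted p = 0.0274 from limma). The call rested on day 30 replicates 3, 4 and 5: the difference was -0.66 (adjusted p = 0.0236 from limma) within the 6 arrays and -0.14 (adjusted p = 0.907 from limma) within the 13 arrays, and it missed the threshold without any 1 of these replicates (-0.40 to -0.37, adjusted p of 0.118 to 0.13 from limma). Nr1h3, the gene of the receptor LXRα, differed by -0.21 (interval -0.50 to 0.07) at day 15 and 0.04 (interval -0.20 to 0.28) at day 30.

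No gene passed at either day in limma or in the methods' t-test among 18 other apolipoproteins and remodelling genes, 12 partners and regulators of lipoprotein lipase, 10 uptake genes, 25 genes of lysosomal and intracellular cholesterol handling, 20 genes of the SREBP2 pathway of cholesterol synthesis, and 16 other ABCA and ABCG transporters. Over these 97 genes, some of them on several lists, 6 had an unadjusted p under 0.05 in limma at day 15 and 18 at day 30. Over all 19938 genes 1206 and 2582 did. Over all genes 0.502% and 0.787% passed, so a count of 0 in lists of this size does not set them apart. Intervals lay within 1.5-fold for 78.4% of the 97 at day 15 and 83.5% at day 30, against 87.8% and 91.1% of all genes, and for 6 and 9 of the 18 other apolipoproteins. Their median differences by list were between -0.26 and 0.06 at day 15 and between -0.16 and -0.04 at day 30. The most negative was that of the other apolipoproteins at day 15, where the hepatocyte markers had a median of -0.63.

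The genes whose levels followed Apoc1 most closely over the 19 arrays were Timd4 (Pearson r = 0.98), Klhl13 (r = 0.96) and Xlr (r = 0.95). These values describe arrays of 3 groups, and all 3 genes were lower in mo-KCs, as Apoc1 was. Within the 11 em-KC arrays r was 0.28, 0.17 and -0.35 for Timd4, Klhl13 and Xlr, and within the 8 mo-KC arrays 0.87, 0.55 and 0.69. The 8 mo-KC arrays pool day 15 and day 30, between which neither Apoc1 nor Timd4 overlapped, so these r values include the difference between the days. Timd4, which encodes a receptor for phosphatidylserine on resident macrophages, was 7.88 to 8.36 in day 15 mo-KCs, 9.38 to 9.86 in day 30 mo-KCs and 11.70 to 12.02 in em-KCs. Its order of groups, day 15, day 30, em-KCs, was that of Apoc1. Among the 7 genes Lipa came nearest to Apoc1 (r = 0.76, rank 76 of 19937 genes), with r of 0.31 within em-KCs and -0.27 within mo-KCs. Apoe ran the other way (r = -0.35). Apoe, Lpl, Abca1 and Pltp, which shared their low day 30 arrays, correlated among themselves with r of 0.37 to 0.72.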

How the data were processed

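Expression was measured on 19 Affymetrix Mouse Gene 1.0 ST arrays. The authors deposited log2 expression per probeset after Robust Multi-array Average with quantile normalization between arrays, with software versions not stated. Values ran from 1.71 to 14.4. Of 35556 probesets, 21789 had 1 gene symbol in the platform annotation, 1621 several and 12146 none, and only the first kind was used. The probeset with the highest mean stood for a gene (19938 genes). No pair of the 171 pairs of arrays was identical.

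The 3 groups were fitted together in limma 3.58.1 (lmFit and eBayes, R 4.3.3), two-sided, with Benjamini-Hochberg adjustment over all genes at 0.05 and 95% confidence intervals. Comparisons among em-KCs used a fit of all 7 conditions, and the comparison of array sets a fit of group by set. The fit was tested on simulated data. The number of arrays sets the precision. P-values set each difference against the spread between arrays of a group or condition. Whether that is a spread between single mice is not stated. Named genes were the listed genes, up to 4 called genes of each other list, neighbours on chr7 and the 3 genes most correlated with Apoc1. The genes and lists were chosen with earlier results of these data known. Alternatives covered the em-KC arrays used, array set, marker covariates, replicate number, probeset choice, a filter at a mean of 6, normalization, variance model, array weights, the methods' t-test and leaving out each array. Sequences are from RefSeq (GRCm38.p6).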

Additional observations from a re-analysis of the deposited data

Results flagged for a closer look

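Abcg1 had 1 array that stood apart: day 30 mo-KC replicate 5 had 9.05, while the other 4 day 30 arrays lay between 9.18 and 9.23. Over the 7 genes, 7 groups were tested in this way and 1 array was marked, and chance marks about 1 in 20 groups. Without this array the day 30 difference of Abcg1 from em-KCs was -0.13, against -0.16 with it, and neither passed the test in limma.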

How the results depend on the processing

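Apoc1 passed the test in each of 34 alternatives at day 15 (-1.15 to -1.08, highest adjusted p 7.5e-05) and of 35 at day 30 (-0.80 to -0.68, highest adjusted p 0.0127), and in 1 of 31 between the days (0.30 to 0.39). At day 15 the count of genes that passed was 1 in every setting. At day 30 it was 2, with Lipa added, under the array set as a block, the endothelial covariate, the filter at a mean of 6, median centring, and trend and robust variances, and 4 (Lpl and Abca1 added) under the hepatocyte covariate; leaving out 1 array gave 1 to 2. Between the days it was 1 under trend and robust variances. For WT against colony em-KCs it was 2 under cyclic loess (Abcg1 and Lipa) and 1 (Lipa) under trend and robust variances and under the methods' t-test, and leaving out 1 array gave 0 to 1, Lipa passing without day 30 replicate 5. For the difference between array sets it was 1 under cyclic loess (Pltp, lower). The cause was not tested. The methods' t-test had 1251 genes at an unadjusted 0.05 and 66 after adjustment at day 15, with 2 and 1 of the 7 genes, and 2365 and 84 at day 30, with 4 and 1 of the 7.

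Counts over all genes moved by over 1.5 times from 100 at day 15 to 64 (untreated KC-DTR em-KCs only), 44 (littermates of the same day only), 231 (within the 13 arrays), 168 (set block), 242 (array weights) and 66 (t-test). At day 30 they moved from 157 to 63, 27, 65 and 514 under the first 4 of these, 827 within the 6 arrays, 602 with the hepatocyte covariate, 49 with the replicate block and 84 with the t-test. Between the days 4 became 8 (set block) and 0 (t-test).

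Differences that changed sign, none of which passed in either setting, were these. With littermates of the same day only, Apoe was -0.025, Abcg1 0.05 and Pltp -0.006 at day 15, and Apoe -0.052 at day 30. Pltp at day 15 was -0.011 with the set block and -0.047 with the hepatocyte covariate. Apoe at day 30 was -0.021 against colony em-KCs, -0.038 with the hepatocyte covariate and -0.014 with cyclic loess. Pltp at day 30 was 0.09 within the 13 arrays and 0.04 with the replicate block. Between the days, within the 13 arrays, Apoe was 0.097, Lpl 0.021, Abca1 0.14 and Pltp 0.07. With the set block Apoe was 0.047 and Abca1 0.119, with the replicate block 0.035 and 0.096, and with the hepatocyte covariate Abca1 was 0.001. Leaving out 1 array gave -0.084 to 0.014 for Lpl at day 15 and -0.025 to 0.093 for Apoe at day 30. Between the days it gave -0.093 to 0.039 for Abca1, -0.141 to 0.018 for Abcg1 and -0.065 to 0.021 for Lipa. Lpcat3 at day 30 passed in 26 of 35 alternatives (-0.655 to -0.137), while Timd4, Klhl13 and Xlr passed in all of theirs at both days.

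Replicate numbers did not pair the arrays: the deviations of 36 same-numbered pairs correlated at -0.12 to 0.15, and of 96 other pairs at -0.16 to 0.14. With the replicate block 1 of the 7 genes passed at day 15 and 1 at day 30, Apoc1 in both, and Lpcat3 was -0.289 at day 30 and did not pass.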
